A study of Saccharomyces cerevisiae with 14 samples.

Results

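The 9 Saccharomyces cerevisiae genes described here encode enzymes that carry carbon from 2-oxoglutarate to oxaloacetate, other than succinate dehydrogenase and the shared subunit Lpd1. They were picked for their place in the pathway, with earlier results of these data known, and make up 9 of the 6664 genes in the deposited table. KGD1 (YIL125W), KGD2 (YDR148C) and YMR31 (YFR049W, also called KGD4) belong to the 2-oxoglutarate dehydrogenase complex. LSC1 (YOR142W) and LSC2 (YGR244C) encode succinyl-CoA ligase, FUM1 (YPL262W) fumarase, and MDH1 (YKL085W), MDH2 (YOL126C) and MDH3 (YDL078C) the malate dehydrogenases. All 9 passed the filter on low values.

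In the tricarboxylic acid cycle, 2-oxoglutarate is decarboxylated and joined to coenzyme A, the thioester of succinyl-CoA is used to make ATP, and succinate is oxidised by way of fumarate and malate to oxaloacetate. The cycle runs in the mitochondrial matrix and feeds electrons to the respiratory chain. Yeast growing fast on glucose ferments and represses many of these genes, while growth on ethanol needs respiration and the making of sugar from malate and oxaloacetate. The 3 malate dehydrogenases catalyse the same reaction in different places: Mdh1 in the mitochondrial matrix, Mdh2 in the cytosol, where it serves gluconeogenesis and the glyoxylate cycle, and Mdh3 in peroxisomes, where it reoxidises the NADH formed by fatty acid breakdown.

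Poly(A) RNA of 14 libraries was measured in 4 groups. The deletion group (fpt1::KanMX, in which FPT1 is replaced by a drug-resistance cassette) gave 4 libraries after 2 h in ethanol and 4 in the glucose medium YEPD, and the wild type BY4741 gave 3 in ethanol and 3 in YEPD. All strains were MATa and carried his3Δ1, leu2Δ0, met15Δ0 and ura3Δ0. Cultures were in mid-log growth in YEPD, and those for ethanol then spent 2 h in it at 30 °C. In the deletion groups replicates 1 to 3 are strain NKI5633, and replicate 4 is strain NKI5620. Fpt1 binds at tRNA genes and others transcribed by RNA polymerase III, and the comparisons ask how its loss and the change of carbon source alter messenger RNA levels.

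Values are FPKM, by definition fragments scaled for gene length and for the mapped total of the library, so levels of different genes can be set side by side. The lengths and totals used are not given, so such comparisons are approximate, above all for the short YMR31 (372 bases). FPKM is relative to the library total and shows no change in total messenger RNA, and in a bulk culture more RNA per cell and more cells with the RNA cannot be told apart. FPT1 read 0.303, 0, 0 and 0.412 FPKM in deletion cells in ethanol against 136, 150.1 and 158 in wild type in ethanol, and 0, 0.205, 0.153 and 0 in deletion cells in glucose against 52.4, 51.9 and 51.9 in wild type in glucose. All 4 MATa marker genes (STE2, BAR1, MFA1, MFA2) lay between 58.3 and 1060.0 FPKM in every library, and the 4 MATalpha markers between 0 and 27.9. Depth was estimated only roughly, at 6050000 to 12450000 reads per library. That corresponds to about 72 to 1213 reads for YMR31, the member with the fewest, and 1266 to 3212 for MDH2. The first principal component of all genes, with 82% of the variance, placed the ethanol libraries at 51.8, 35.3, 45.6 and 31.8 for deletion replicates 1 to 4 and at 58.1, 56.9 and 47.0 for wild type. All glucose libraries lay between -50.7 and -42.7, so deletion replicates 2 and 4 were the ethanol libraries nearest to glucose.

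All 9 genes were higher in ethanol than in glucose in both genotypes, by very different amounts, except that the estimate of MDH2 fell below 0 under quantile normalization (-0.08 in deletion cells and -0.03 in wild type). LSC2, the beta subunit of succinyl-CoA ligase, rose most, 8.28-fold in deletion cells and 10.9-fold in wild type. MDH2, the cytosolic enzyme, had the highest mean of the 9 in glucose and hardly moved, at 1.20-fold and 1.33-fold. The test was limma on log2(FPKM + 1) over all 14 libraries, with Benjamini-Hochberg adjustment over the 6267 genes tested and a threshold of 0.05. Fold changes are on this log scale, where the added 1 understates a change, slightly for these 9 genes and strongly for genes near 0 FPKM. Of all genes, 46.9% passed as higher in deletion cells and 50.5% in wild type, so 9 of 9 is to be read against about that share. A call with an estimate of at least 1 on the log2 scale was made for 8 of the 9 in each genotype. Of all genes, 17.4% had this in deletion cells and 23.4% in wild type. At least 2 was reached by 4 of the 9 in deletion cells, against 4.98% of all genes. In wild type it was reached by 6, against 8.06%. The test was against 0, so these sizes are cuts on the estimate. Under median scaling FUM1 stood below 1, at 0.89 in deletion cells and 0.91 in wild type. Under that scaling LSC1 in deletion cells (1.90) and KGD2 and MDH3 in wild type (1.72 and 1.84) stood below 2. The shares of all genes at these cuts were not computed under that scaling.

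The median change over all genes was itself above 0, at 0.19 in deletion cells and 0.31 in wild type on the log2 scale, and over the 9 genes it was 1.88 and 2.16. Of the genes called in deletion cells, 62.9% were higher (2939 higher, 1733 lower), with 49.1% under median scaling and 45.8% under quantile normalization. In wild type it was 67.0% (3163 higher, 1555 lower), with 50.2% and 46.8%. Relative to the median of all genes, the members moved by between 0.07 (MDH2) and 2.86 (LSC2) in deletion cells, and by between 0.10 (MDH2) and 3.13 (LSC2) in wild type. In deletion cells 1.98% of all genes rose more than LSC2 and 46.1% had a larger estimate than MDH2. In wild type these shares were 2.17% and 45.7%.

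**Figure D1:**
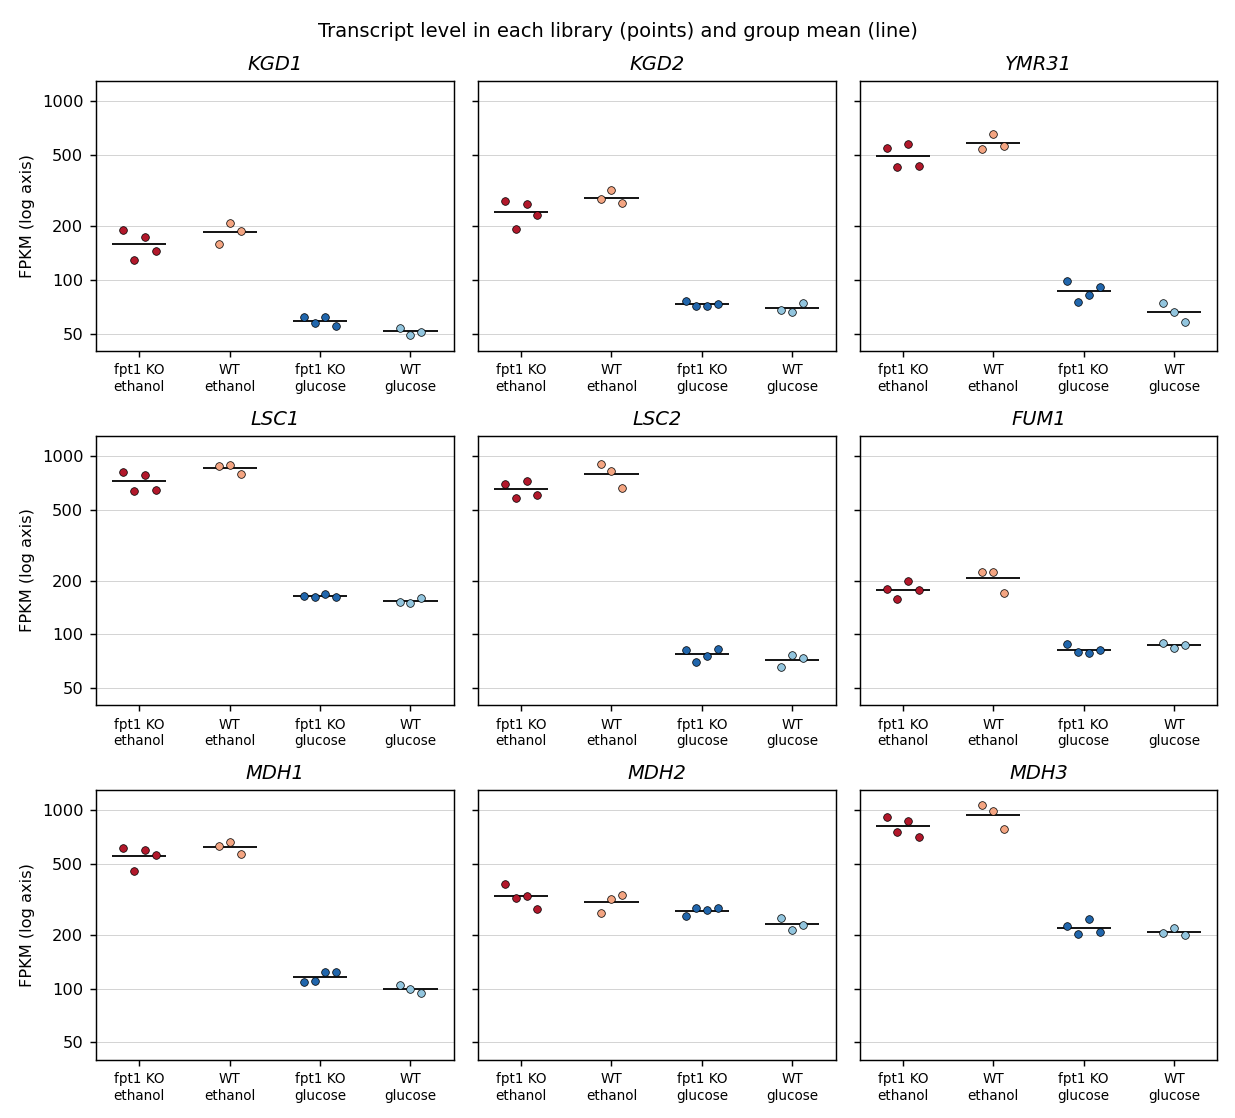
FPKM of the 9 genes on a shared log axis, 1 point per library in the 4 groups and a line at the arithmetic mean of each group. Ethanol and glucose libraries are far apart for every gene except MDH2, whose deletion libraries run from 278 to 387 FPKM in ethanol and from 255 to 285 in glucose.

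The 2-oxoglutarate dehydrogenase complex has a decarboxylase, Kgd1, a succinyltransferase core, Kgd2, and the dihydrolipoamide dehydrogenase Lpd1, which other complexes share. Ymr31 is a small subunit known to hold Lpd1 to the core. KGD1 (chromosome IX, 122689 to 125733 in R64, plus strand, coding length 3045 bases) read 191, 129.7, 174 and 144 FPKM in deletion cells in ethanol, against 61.5, 57.5, 61.8 and 55.4 in glucose. In wild type it read 158, 209 and 189 FPKM in ethanol, against 53.8, 49.1 and 51.1 in glucose. The media did not overlap, and KGD1 was the lowest of the 9 genes in every group by its mean. It rose by 1.41 ± 0.11 on the log2 scale in deletion cells (SE, adjusted p = 6.1e-08) and by 1.83 ± 0.13 in wild type (adjusted p = 1.6e-08).

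KGD2 (chromosome IV, 753675 to 755066, minus strand, 1392 bases) read 276, 191, 265 and 231 FPKM in deletion cells in ethanol, against 75.9, 71.0, 71.3 and 73.4 in glucose. Wild-type libraries had 282, 317 and 268 FPKM in ethanol, against 67.9, 65.8 and 74.2 in glucose. Deletion replicate 2 was the lowest ethanol library for both KGD1 and KGD2, though still far above every glucose library. The log2 rise of KGD2 was 1.70 ± 0.10 in deletion cells (adjusted p = 2.9e-09) and 2.04 ± 0.11 in wild type (adjusted p = 1.7e-09).

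YMR31 (chromosome VI, 248523 to 248894, plus strand, 372 bases) read 546, 427, 579 and 436 FPKM in deletion cells in ethanol, against 98.6, 74.8, 81.8 and 91.0 in glucose. Wild type had 543, 659 and 559 FPKM in ethanol, against 74.5, 66.3 and 57.7 in glucose. Its log2 rise was 2.50 ± 0.12 in deletion cells (adjusted p = 5.5e-10) and 3.13 ± 0.14 in wild type (adjusted p = 2.7e-10), the largest after that of LSC2 in each genotype. LPD1, which is not among the 9, averaged 276 ± 21.4 FPKM in deletion cells in ethanol and 325 ± 18.9 in wild type in ethanol, against 155 ± 4.53 and 152 ± 1.50 in deletion and wild-type cells in glucose (SD, n = 4 and 3). Its log2 rise was 0.83 in deletion cells and 1.09 in wild type, below that of each of the 3 complex members.

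Within the complex the balance of transcripts differed between the media (errors of ratios and shares are SDs, n = 4 deletion and 3 wild-type libraries). The ratio of LPD1 to KGD2 averaged 1.16 ± 0.105 in deletion cells in ethanol and 1.13 ± 0.0587 in wild type in ethanol, against 2.12 ± 0.0333 and 2.20 ± 0.152 in deletion and wild-type cells in glucose. The ratio of YMR31 to KGD2 averaged 2.07 ± 0.164 in deletion cells in ethanol and 2.03 ± 0.0913 in wild type in ethanol, against 1.19 ± 0.108 and 0.961 ± 0.166 in deletion and wild-type cells in glucose. In neither ratio did any ethanol library overlap with any glucose library. An exact two-sided permutation test, with media exchanged within each genotype, gave log2 differences of -0.92 for LPD1 to KGD2 and 0.95 for YMR31 to KGD2, each with adjusted p = 0.00163 over 8 ratios. The unadjusted p of 0.00143 is the smallest that the 1400 splits can give. KGD1 to KGD2 shifted less, by -0.25 (permutation adjusted p = 0.00286), at 0.663 ± 0.0295 in deletion cells and 0.642 ± 0.0732 in wild type in ethanol, against 0.811 ± 0.0455 in deletion cells and 0.743 ± 0.0525 in wild type in glucose.

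Succinyl-CoA ligase joins an alpha subunit, Lsc1, and a beta subunit, Lsc2, and makes ATP from succinyl-CoA. LSC1 (chromosome XV, 593057 to 594046, plus strand, 990 bases) read 814, 633, 785 and 647 FPKM in deletion cells in ethanol, against 164, 162, 168 and 161 in glucose. In wild type it read 872, 883 and 793 FPKM in ethanol, against 152, 149 and 159.9 in glucose. The spread in glucose was small, and ethanol libraries lay far above it, with deletion replicates 2 and 4 the lowest of them. LSC1 rose by 2.12 ± 0.08 on the log2 scale in deletion cells (adjusted p = 5.0e-11) and by 2.46 ± 0.09 in wild type (adjusted p = 5.6e-11).

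LSC2 (chromosome VII, 978036 to 979319, minus strand, 1284 bases) read 696, 583, 725 and 601 FPKM in deletion cells in ethanol, against 81.5, 70.2, 76.0 and 82.6 in glucose. Wild-type libraries had 897, 823 and 661 FPKM in ethanol, against 65.5, 76.2 and 73.4 in glucose. Its log2 rise was 3.05 ± 0.10 in deletion cells (adjusted p = 2.1e-11) and 3.44 ± 0.12 in wild type (adjusted p = 3.0e-11). The LSC1 to LSC2 ratio was near 1 in ethanol, at 1.10 ± 0.0447 in deletion cells and 1.08 ± 0.114 in wild type, against 2.12 ± 0.171 in deletion cells and 2.16 ± 0.185 in wild type in glucose. The difference was -0.97 on the log2 scale in the exact permutation test (adjusted p = 0.00163), and no ethanol library overlapped with a glucose library.

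Fumarase, which adds water to fumarate to give malate, is made from the single gene FUM1 for both mitochondria and cytosol. FUM1 (chromosome XVI, 47336 to 48802, plus strand, 1467 bases) read 179, 157, 199 and 177 FPKM in deletion cells in ethanol, against 88.7, 79.5, 78.1 and 81.1 in glucose. Wild type read 224, 223 and 171 FPKM in ethanol, against 89.3, 83.6 and 86.9 in glucose. It rose by 1.11 ± 0.09 on the log2 scale in deletion cells (adjusted p = 7.6e-08) and by 1.23 ± 0.10 in wild type (adjusted p = 9.3e-08), the smallest rise of the 9 after MDH2. FUM1 relative to MDH1 stood at 0.321 ± 0.0230 in deletion cells and 0.330 ± 0.0290 in wild type in ethanol, against 0.705 ± 0.0789 and 0.871 ± 0.0452 in glucose, a log2 difference of -1.27 (exact permutation, adjusted p = 0.00163).

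Among the malate dehydrogenases, MDH1 (chromosome XI, 279123 to 280127, plus strand, 1005 bases) read 615, 458, 597 and 559 FPKM in deletion cells in ethanol, against 109.6, 110.3, 123 and 124 in glucose. In wild type it read 629, 664 and 571 FPKM in ethanol, against 105, 99.1 and 94.1 in glucose. MDH1, whose enzyme is mitochondrial, rose by 2.24 ± 0.09 on the log2 scale in deletion cells (adjusted p = 9.1e-11) and by 2.63 ± 0.10 in wild type (adjusted p = 7.9e-11). MDH3 (chromosome IV, 315357 to 316388, minus strand, 1032 bases) encodes the peroxisomal enzyme. It read 913, 752, 871 and 712 FPKM in deletion cells in ethanol, against 224, 202, 244 and 207 in glucose. Wild-type libraries had 1066, 989.5 and 783 FPKM in ethanol, against 206, 219.9 and 201 in glucose. MDH3 had the highest mean of the 9 genes in ethanol in both genotypes. It rose by 1.88 ± 0.10 in deletion cells (adjusted p = 1.9e-09) and by 2.16 ± 0.12 in wild type (adjusted p = 1.7e-09).

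MDH2 (chromosome XV, 81787 to 82920, minus strand, 1134 bases) read 387, 323, 332 and 278 FPKM in deletion cells in ethanol, against 255, 282, 275 and 285 in glucose. Wild-type cells had 267, 318 and 333 FPKM in ethanol, against 250.1, 214 and 226 in glucose. The media overlapped in deletion cells and did not in wild type. All other members were non-overlapping and higher in both genotypes, which gave 8 of 9 in deletion cells against 43.7% of all genes, and 9 of 9 in wild type against 51.4%. The log2 rise of MDH2 was 0.26 ± 0.10 in deletion cells (adjusted p = 0.026) and 0.41 ± 0.11 in wild type (adjusted p = 0.0042).

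That call depended on the scaling and, in deletion cells, on single libraries and on whether the replicate number was a block. With median scaling the change of MDH2 was 0.04 in deletion cells (adjusted p = 0.664) and 0.08 in wild type (adjusted p = 0.456), and with quantile normalization it was -0.08 (adjusted p = 0.46) and -0.03 (adjusted p = 0.824). In deletion cells the call was also lost without glucose replicate 1 (0.22, adjusted p = 0.0735), without ethanol replicate 1 (0.18, adjusted p = 0.0879) and without ethanol replicate 3 (0.25, adjusted p = 0.0522). It was lost there too in limma with the replicate number as a block (0.26, adjusted p = 0.0667). The call held under 17 of 23 alternatives in deletion cells and under 21 of 23 in wild type. Over the 23 the adjusted p of MDH2 ran from 0.00424 to 0.664 in deletion cells and from 0.00145 to 0.824 in wild type. Each of the other 8 genes passed as higher in both genotypes under all of these alternatives, with log2 changes of at least 0.83.

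**Figure D2:**
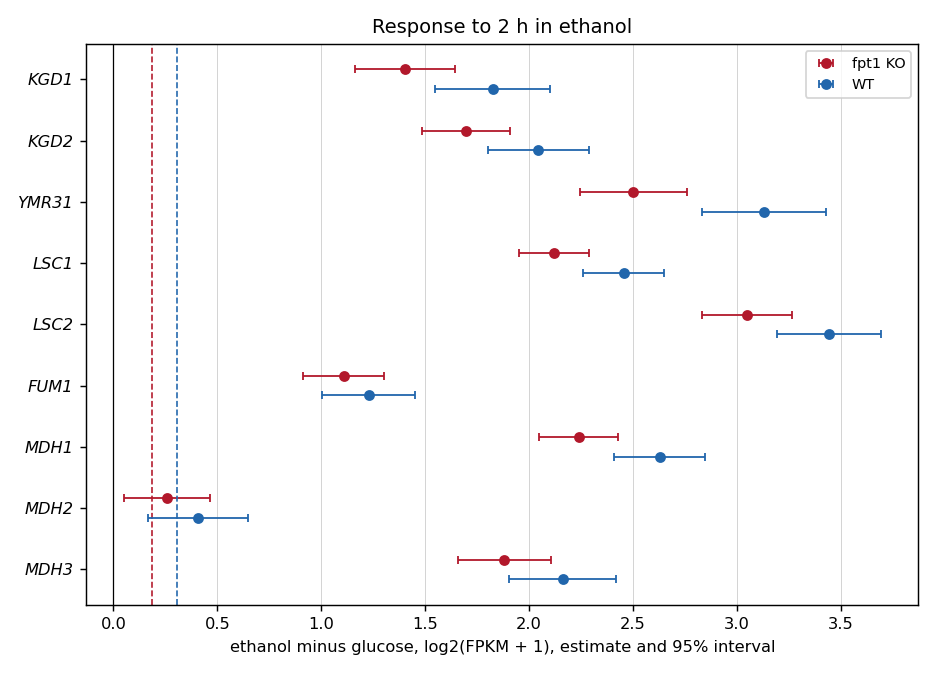
Response of the 9 genes to ethanol in deletion and wild-type cells, as ethanol minus glucose on the log2(FPKM + 1) scale with 95% confidence intervals from limma, and dashed lines at the median of all genes (0.19 and 0.31). MDH2 lies beside those lines, while LSC2, at 3.05 and 3.44, lies farthest from them.

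The summed FPKM of the 3 malate dehydrogenase genes was 1699 ± 189 in deletion cells in ethanol and 1873 ± 161 in wild type in ethanol, against 610.1 ± 24.5 and 539 ± 20.6 in deletion and wild-type cells in glucose. The share of MDH2, for the cytosolic enzyme, was lower in ethanol. Those of MDH1 and MDH3, for the mitochondrial and peroxisomal enzymes, were higher. MDH2 made up 19.4 ± 1.47% of the sum in deletion cells and 16.5 ± 3.09% in wild type in ethanol, against 45.0 ± 2.27% in deletion cells and 42.7 ± 2.30% in wild type in glucose. MDH1 made up 32.8 ± 2.56% in deletion cells and 33.2 ± 0.975% in wild type in ethanol, against 19.1 ± 0.702% in deletion cells and 18.5 ± 0.392% in wild type in glucose. MDH3 made up 47.8 ± 1.32% in deletion cells and 50.3 ± 3.95% in wild type in ethanol, against 35.9 ± 2.45% in deletion cells and 38.9 ± 2.32% in wild type in glucose. The ratio of MDH1 to MDH2 was 1.71 ± 0.255 in deletion cells and 2.05 ± 0.323 in wild type in ethanol, against 0.426 ± 0.0246 in deletion cells and 0.434 ± 0.0264 in wild type in glucose, the largest shift of the 8 ratios at 2.11 on the log2 scale (exact permutation, adjusted p = 0.00163). MDH3 to MDH1 shifted by -0.42 and KGD1 to MDH1 by -0.81 (adjusted p = 0.00163 for each, exact permutation). The coding sequences of the 3 genes are distinct, with 66.4% identical bases between MDH1 and MDH2, 62.9% between MDH1 and MDH3 and 62.2% between MDH2 and MDH3. The longest run of identical bases was 14, against reads of 65 bases. None of the 9 genes overlapped another annotated gene, and no 65-base stretch of any of them occurred elsewhere in the genome.

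**Figure D3:**
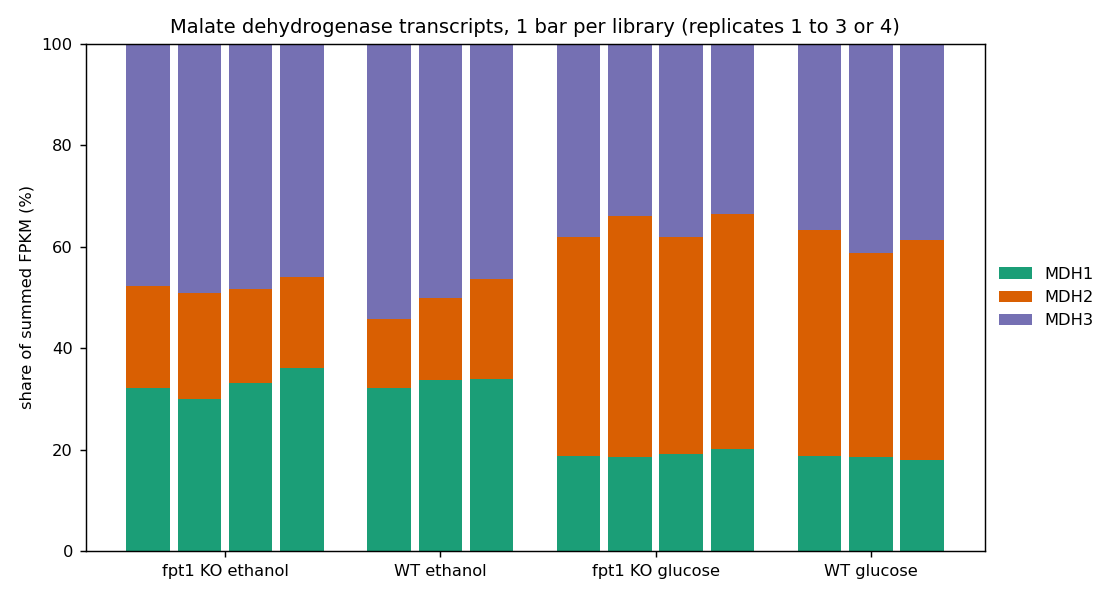
Share of each malate dehydrogenase gene in the summed FPKM of MDH1, MDH2 and MDH3, in percent, 1 bar per library. MDH2 takes 13.6% to 21.1% in ethanol libraries and 40.1% to 47.4% in glucose libraries.

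**Figure D4:**
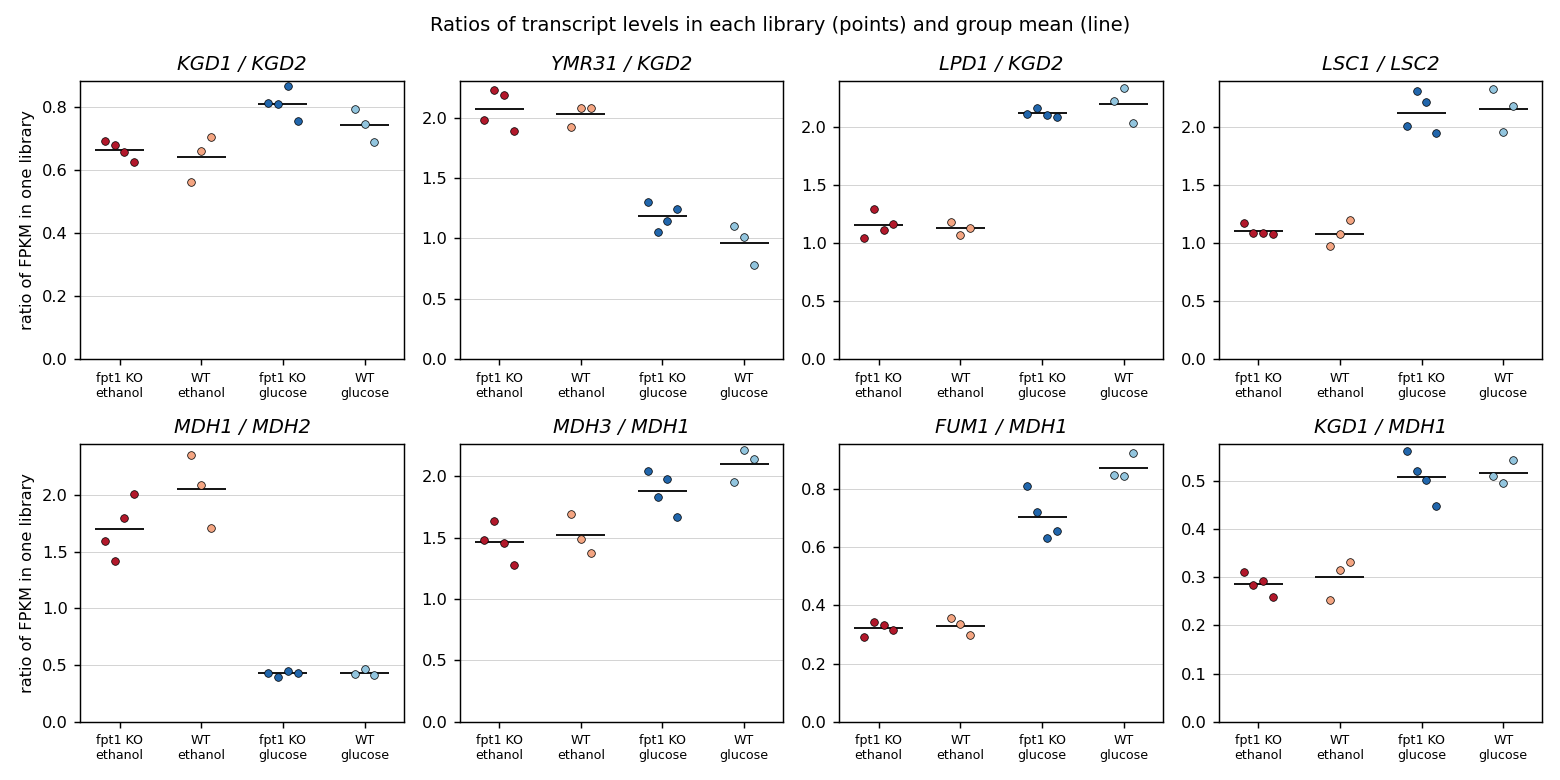
The 8 ratios of FPKM between 2 genes, 1 point per library and a line at each group mean, on linear axes that start at 0. Ethanol and glucose libraries are fully apart for LPD1 to KGD2, YMR31 to KGD2, LSC1 to LSC2, MDH1 to MDH2, FUM1 to MDH1 and KGD1 to MDH1, and overlap for KGD1 to KGD2 and MDH3 to MDH1. No ratio passed the test between deletion and wild-type cells.

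The order of levels also changed with the medium. In deletion cells in ethanol the means ran MDH3 812, LSC1 720, LSC2 651, MDH1 557, YMR31 497, MDH2 330, KGD2 241, FUM1 178 and KGD1 159.6 FPKM, and wild type in ethanol had the same order. In both genotypes neighbours from MDH3 to YMR31 overlapped between libraries, as did FUM1 and KGD1. MDH2 and KGD2 overlapped in wild type and not in deletion cells. In glucose the order began with MDH2, MDH3, LSC1 and MDH1 in both genotypes, at 274, 219, 164 and 117 FPKM in deletion cells and 230.0, 209, 154 and 99.5 in wild type. Among these 4 only MDH2 and MDH3 in wild type overlapped. YMR31, FUM1, LSC2 and KGD2 followed at 86.5, 81.8, 77.6 and 72.9 FPKM in deletion cells, with each neighbour overlapping. In wild type FUM1, LSC2, KGD2 and YMR31 followed at 86.6, 71.7, 69.3 and 66.2, where FUM1 did not overlap with LSC2.

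The stretches upstream of the genes were searched for short words tied to carbon control. The reason was that, by the main estimates, 8 of the 9 genes rose by at least 1 in log2 and MDH2 did not. The sequence is the RefSeq assembly R64, and the windows are the 500 bases before each start codon of 6019 coding genes, on both strands. CCAAT, the core bound by the respiratory activator Hap2/3/4/5, was present at 7 of the 9 genes, against 62.4% of all genes. The longer form ACCAATNA, which contains it, was at 0 of 9, against 8.66%. The carbon source-responsive element, bound by the activators Cat8 and Sip4 of gluconeogenic genes, matched at MDH2 (3 matches) and FUM1 (1 match), against 26 of all genes (0.432%), and only 1 gene held 3 or more. Words of the glucose repressor Mig1 (GGGG after C or G and then C or T) were at KGD1, YMR31, LSC2 and MDH2, against 22.7% of all genes, and the one at MDH2 overlapped an end of a carbon source-responsive element match. LSC1 held none of these words, and the windows of YMR31, LSC1, LSC2 and MDH1 ran into a neighbouring gene. A match is a run of letters, and binding was not measured here.

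For comparison, the stretches of MDH2 (460 to 301 bases before the start codon), FUM1 (365 to 266), KGD2 (439 to 320), KGD1 (335 to 236) and MDH1 (270 to 171) are shown, each 5′ to 3′ on the coding strand. They set the gene that hardly moved beside 4 that rose. LSC2, which rose most, and LSC1 held no CCAAT in their windows and are not shown. YMR31 and MDH3, which also rose and held CCAAT, are not shown either. Capitals mark carbon source-responsive element matches in MDH2 and FUM1, and CCAAT or its reverse ATTGG in FUM1, KGD2, KGD1 and MDH1. The CCAAT of MDH2, 336 to 332 bases before its start codon, is left in lower case.
MDH2 (chrXV:83221-83380, minus strand): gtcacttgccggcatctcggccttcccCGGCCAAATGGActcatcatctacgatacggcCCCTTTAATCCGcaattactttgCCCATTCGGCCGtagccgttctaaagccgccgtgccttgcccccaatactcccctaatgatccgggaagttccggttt
FUM1 (chrXVI:46971-47070, plus strand): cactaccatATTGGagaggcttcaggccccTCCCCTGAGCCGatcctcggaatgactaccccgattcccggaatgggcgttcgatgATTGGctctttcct
KGD2 (chrIV:755386-755505, minus strand): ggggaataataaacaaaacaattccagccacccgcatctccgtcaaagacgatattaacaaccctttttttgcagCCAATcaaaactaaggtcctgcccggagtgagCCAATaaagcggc
KGD1 (chrIX:122354-122453, plus strand): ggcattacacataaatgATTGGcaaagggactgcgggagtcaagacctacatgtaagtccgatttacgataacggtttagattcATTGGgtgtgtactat
MDH1 (chrXI:278853-278952, plus strand): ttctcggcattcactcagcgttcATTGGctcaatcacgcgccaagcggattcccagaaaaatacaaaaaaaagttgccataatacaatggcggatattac
The 3 matches at MDH2 lie within the first of these stretches, 433 to 367 bases before the start codon. Of the words searched, the stretches of KGD2, KGD1 and MDH1 show the CCAAT core alone. The Mig1 word of KGD1, 372 to 367 bases before its start codon, lies outside its stretch. That of MDH2, at 436 to 431, lies inside and is not marked as such. FUM1 and MDH2 each hold both CCAAT and the carbon source-responsive element. Whether any of these words bears on the rise in ethanol was not tested.

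Loss of FPT1 left no called difference in these 9 genes in either medium. In glucose all but FUM1 had estimates above 0, between 0.07 for KGD2 and MDH3 and 0.38 ± 0.13 for YMR31 (SE, adjusted p = 0.366), and FUM1 stood at -0.08. Over all genes 73.2% of estimates were above 0 and the median was 0.08, against 0.11 over the 9. Limma called 0 of the 9, against 2 of all genes (0.0319%), the deleted FPT1 among them. An unadjusted p under 0.05 was found for 3 of the 9, against 11.5% of all genes. They were YMR31, MDH1 at 0.23 ± 0.10 (adjusted p = 0.407) and MDH2 at 0.25 ± 0.10 (adjusted p = 0.402). For KGD1, YMR31, LSC1, MDH1 and MDH2 every deletion library was above every wild-type library, 5 of 9 against 15.6% of all genes. KGD2, LSC1 and MDH3 turned to -0.02, -0.000373 and -0.03 under median scaling, and KGD2 to -0.02 under quantile normalization.

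In ethanol the estimates were below 0 for all but MDH2. They lay between -0.28 ± 0.11 for LSC2 (adjusted p = 0.156) and -0.16 ± 0.10 for MDH1 (adjusted p = 0.310), and MDH2 stood at 0.10 ± 0.10 (adjusted p = 0.559). The median was -0.22 over the 9 and -0.04 over all genes, and 42.5% of all genes had estimates above 0. Limma called 0 of the 9, against 2 of all genes (0.0319%), again with FPT1 among them. An unadjusted p under 0.05 was found for KGD2, LSC1 and LSC2, 3 of 9 against 24.1% of all genes. Deletion and wild-type libraries overlapped for every member, where 3.24% of all genes were non-overlapping and higher and 4.12% non-overlapping and lower.

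These ethanol estimates moved with single libraries. Of the 7 ethanol libraries, deletion replicate 2 was the lowest for 7 of the 9 genes, and replicates 2 and 4 were each among the lowest 2 for 8 of 9. Without these 2 libraries, a comparison chosen after seeing the data, the differences of the other 8 lay nearer to 0, between -0.15 (LSC2) and -0.02 (KGD1), with MDH2 at 0.23. Without wild-type ethanol replicate 3, the wild-type library nearest to glucose on the first component, 964 genes were called, among them LSC2 at -0.41 (adjusted p = 0.0206), FUM1 at -0.33 (adjusted p = 0.02) and MDH3 at -0.35 (adjusted p = 0.0427). Without deletion ethanol replicate 1, 913 genes were called, among them KGD2 at -0.34 (adjusted p = 0.0428) and LSC1 at -0.31 (adjusted p = 0.0259). These are the lowest adjusted p of the 5 genes over 23 alternatives, and the highest lay between 0.826 and 0.913. The part of library position in the difference between genotypes was not tested.

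**Figure D5:**
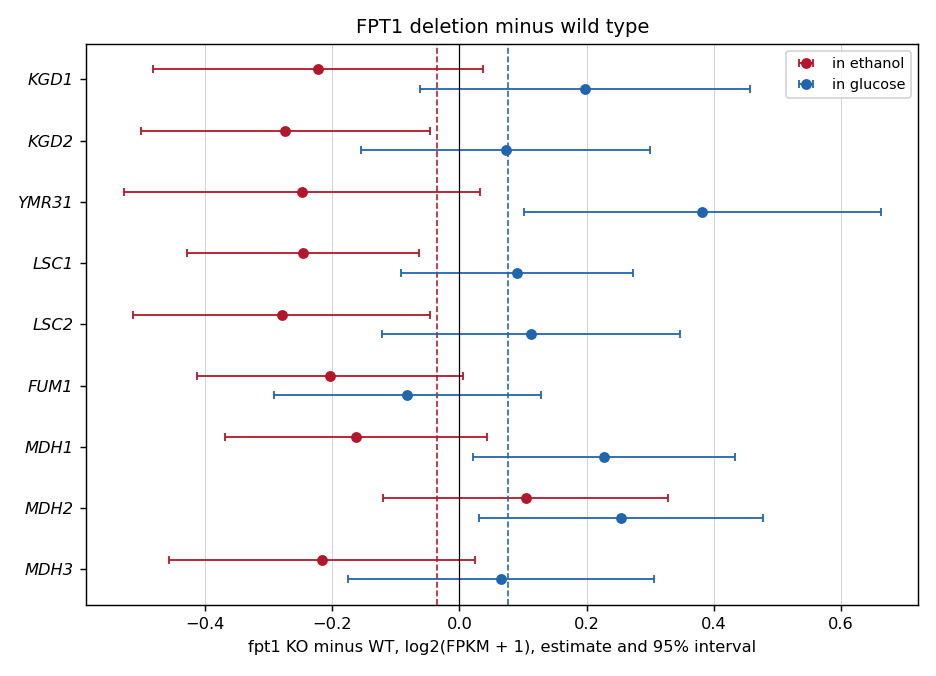
Deletion minus wild type of the 9 genes in ethanol and in glucose on the log2(FPKM + 1) scale, with 95% confidence intervals from limma and dashed lines at the median of all genes (-0.04 and 0.08). Estimates in ethanol lie at or below -0.16 except that of MDH2 at 0.10, and those in glucose between -0.08 and 0.38.

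The rise in ethanol was smaller by its estimate in deletion cells than in wild type for each of the 9 genes, except that FUM1 turned to 0.02 under quantile normalization. The difference of the responses ran from -0.63 ± 0.18 for YMR31 (adjusted p = 0.134) to -0.12 ± 0.14 for FUM1 (adjusted p = 0.587), with KGD1 at -0.42, LSC2 and MDH1 at -0.39, KGD2 at -0.35, LSC1 at -0.34, MDH3 at -0.28 and MDH2 at -0.15. The estimate was above 0 for 31.9% of all genes, and the median was -0.35 over the 9 and -0.12 over all genes. Limma called 0 of 6267 genes in this comparison (0%), while 1603 (25.6%) had an unadjusted p under 0.05, among them 6 of the 9. Without deletion ethanol replicate 1, 846 genes passed, including YMR31 at -0.68 (adjusted p = 0.0377), KGD1 at -0.51 (adjusted p = 0.0462), MDH1 at -0.44 (adjusted p = 0.0474) and LSC1 at -0.40 (adjusted p = 0.0342). Without wild-type ethanol replicate 3, 654 genes passed, including LSC2 at -0.52 (adjusted p = 0.0408). These are the lowest adjusted p of the 5 genes over 22 alternatives, and the highest lay between 0.468 and 0.558. Without deletion ethanol replicates 2 and 4 together, no member passed and the estimates were nearer to 0, with YMR31 at -0.44, KGD1 at -0.22 and FUM1 at -0.03.

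No ratio between members passed the test between the genotypes. In an exact two-sided permutation test with genotypes exchanged within each medium, adjusted p lay between 0.255 and 0.915 for the 8 ratios, and the smallest p that the 1225 splits can give is 0.00163. The ratio of FUM1 to MDH1 came nearest, with a log2 difference of -0.18 (permutation p = 0.0416, adjusted p = 0.255), and LSC1 to LSC2 differed by 0.01 (permutation p = 0.915).

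Other genes around this stretch of metabolism were counted from lists made for the comparison, to be read against the 46.9% of all genes that passed as higher in deletion cells and 50.5% in wild type. Of 11 other tricarboxylic acid cycle genes, LPD1 among them, 10 rose in ethanol in each genotype, with median log2 changes of 2.54 in deletion cells and 3.12 in wild type. CIT3, a mitochondrial citrate and methylcitrate synthase, rose most (4.01 in deletion cells and 4.98 in wild type). Of 8 genes of pyruvate dehydrogenase, the sister complex that shares Lpd1, and of lipoate attachment, 7 rose in deletion cells and 8 in wild type, with medians of 0.74 and 0.89, led by GCV3, the lipoyl protein of glycine cleavage (2.14 and 2.06). Of 7 genes whose enzymes make or use 2-oxoglutarate, 6 rose and 1 fell in each genotype. The cytosolic isocitrate dehydrogenase IDP2 rose by 3.00 and 3.75, and glutamate synthase GLT1 fell by 0.94 and 0.60 on the log2 scale.

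The next lists are read against the same shares, 46.9% of all genes called higher in deletion cells and 50.5% in wild type. Other genes act on malate and oxaloacetate or in the glyoxylate cycle. Of 9 such genes 6 rose and 3 fell in deletion cells, and 5 rose and 3 fell in wild type, which in wild type is near the share of all genes. PCK1, which turns oxaloacetate into phosphoenolpyruvate at the start of gluconeogenesis, rose by 5.68 in deletion cells and 5.85 in wild type, while MAE1, the mitochondrial malic enzyme, fell by 1.78 and 2.31. Of 6 carriers that move these acids across the inner mitochondrial membrane 5 rose and 1 fell in each genotype. The succinate and fumarate carrier SFC1 rose by 3.51 and 4.17, and the oxaloacetate carrier OAC1 fell by 1.58 and 1.67. All 4 genes of peroxisomal fatty acid oxidation and import, the setting of Mdh3, rose, with the acyl-CoA oxidase gene POX1 at 3.59 and 4.57. Of 13 regulators of respiratory carbon metabolism 9 rose in deletion cells and 11 in wild type, led by CAT8 at 3.61 and 4.37, and none fell. In glucose SFC1, POX1 and CAT8 averaged 0.381, 0.599 and 1.145 FPKM in deletion cells and 0.437, 0.595 and 0.756 in wild type. At such low levels the FPKM of 1 added before the log strongly understates their rises. In the deletion against wild type, no gene of these 7 lists passed in either medium, against 0.0319% of all genes.

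The genes with profiles nearest to each member over the 14 libraries were found by the root mean square difference of centred log2(FPKM + 1) values, a measure that grows with how much a gene varies, so it is not ranked between members. The median over all genes was 0.385 for MDH2 and 1.52 for LSC2, with the others between. MDH2 lay nearest to TOH1 at 0.0549, followed by GIC1 and RPN4. KGD2 lay nearest to COR1 at 0.0748, a core protein of respiratory complex III, then to the ATP synthase gene ATP5 and to AYR1. MDH1 lay nearest to ATP7 at 0.0881, then to QCR8 and HMX1, and YMR31 to the succinate dehydrogenase gene SDH3 at 0.136, then to BNS1 and SDH2. For KGD1 the 3 nearest were GUD1 (0.0872), SSH4 and NNK1, for LSC1 GUT1 (0.0834), YCP4 and ATG42, and for LSC2 DLD1 (0.106), RDL1 and MAL32. For FUM1 they were CPR3 (0.0784), AVT7 and OSH7, and for MDH3 YJL068C (0.0829), YNK1 and MRP8. The likeness is a description over 14 libraries of the same 4 groups, most of whose variation lies between 2 media.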

How the data were processed

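Poly(A) RNA of 14 libraries (TruSeq stranded, 65-base single reads) was measured, 4 deletion and 3 wild-type libraries per medium. The deposited values are FPKM made by the authors, 1 column per sample, and all columns were used. The submitters' processing notes name STAR 2.7.1a and the genome build sacCer3. How FPKM was made from the alignments (tool, annotation, filter, use of strand) is not given in the sources used here. These values are no counts, so no count model was used.

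Groups and replicate numbers came from the sample titles. A gene was tested if 3 or more libraries had 1 FPKM or more (6267 of 6664, of which 534 had no entry in the annotation). Limma 3.58.1 (R 4.3.3, empirical Bayes with trend, 1 mean per group over all 14 libraries) was applied to log2(FPKM + 1) for 5 two-sided comparisons, with Benjamini-Hochberg adjustment over all genes tested. Ratios of FPKM were compared by exact permutation tests over libraries. The limma fit and the permutation test were each tested on simulated data. The series calls the replicates biological, but no label names separate cultures, so the p-values reflect only how far these samples differ, part of which may be technical.

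The 9 genes and the lists were chosen with earlier results of these data known. Named genes were the members, FPT1, LPD1, the genes with the largest called rise and fall of each list, and for each member the 3 genes with the nearest profile. Gene positions and sequences came from RefSeq R64, matched by systematic name, because the deposited table gives no coordinates. Depth was estimated from FPKM steps of 10 to 24 low genes per library (coding length of at least 900 bases, 200 bases trimmed), with 61.1% to 100% of them less than 0.15 from a whole read, so it is rough and whole reads were not recovered. Alternatives were other pseudocounts, no filter, median scaling, quantile normalization, fits of the compared groups only, a replicate block and leaving out libraries. The result of 1 gene of the list of other tricarboxylic acid cycle genes is not reported here.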

Additional observations from a re-analysis of the deposited data

Results flagged for a closer look

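Of 34 groups of 4 libraries checked, each a deletion group of 1 member or ratio, 1 held a library far from the others. The LSC1 to LSC2 ratio was 1.17 in deletion ethanol replicate 1, against 1.08 to 1.09 in the other 3 deletion libraries in ethanol. The gap to the nearest library was 0.887 of the group's range, above Dixon's 95% critical value for 4 values. Chance gives such a flag in about 1 of 20 groups.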

How the results depend on the processing

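The rise in ethanol of all members but MDH2, and the 8 ratio shifts between media, kept direction and call under every alternative run (23 for genes, 15 for ratios). MDH2 reversed under quantile normalization, at -0.078 in deletion cells and -0.0282 in wild type. In glucose, deletion minus wild type reversed for KGD2 (-0.0172), LSC1 (-0.000373) and MDH3 (-0.0257) under median scaling and for KGD2 (-0.0153) under quantile normalization, and the difference of responses reversed for FUM1 (0.0157) under quantile normalization. Between genotypes, ratios with 1 library left out ranged from -0.0363 to 0.0146 for LPD1 to KGD2 and from -0.032 to 0.0437 for LSC1 to LSC2. Genes called in glucose between genotypes numbered 1 with pseudocount 5, no filter, median scaling or without strain NKI5620, 12 in a fit of the compared groups only and 13 without deletion ethanol replicates 2 and 4. In ethanol they numbered 4 with pseudocount 5 and 1 with no filter, either scaling, the compared groups only, without strain NKI5620 or without replicates 2 and 4. For the difference of responses 1 gene was called with pseudocount 5, no filter or without strain NKI5620. Leaving out 1 library gave 1 to 9 genes in glucose, 1 to 964 in ethanol and 0 to 846 for the difference. The causes were not tested. Leaving strain NKI5620 and replicates 2 and 4 out was chosen after seeing the data.

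Whether replicate numbers pair the samples cannot be decided here, since deviations are from means of only 3 or 4 libraries. Correlations of deviations between same-numbered samples ran from -0.423 to -0.0634 in wild type across media and from -0.0765 to 0.171 in deletion cells. Across genotypes they ran from -0.258 to 0.00826 in glucose and from -0.0907 to 0.325 in ethanol. Between different numbers the ranges were -0.166 to 0.371 in wild type across media and -0.224 to 0.249 in deletion cells. Across genotypes these were -0.312 to 0.331 in glucose and -0.25 to 0.115 in ethanol. No sample correlated best with its own number in wild type across media or across genotypes in glucose. Some did in deletion cells across media and across genotypes in ethanol, and others did not. With the replicate number as a block, 1 gene was called between genotypes in each medium, and MDH2 in deletion cells, at 0.26, no longer passed (adjusted p = 0.0667). Precision of single values is limited for YMR31, with an estimated 72 reads at the least.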
